A study of Mus musculus with 12 samples.

Results

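The bone morphogenetic protein (BMP) and Id genes examined here are 3 BMP ligands (Bmp4, Bmp2 and Bmp7), the inhibitory Smad gene Smad6 and the 4 members of the Id family (Id1, Id2, Id3 and Id4). They were taken by symbol from the platform annotation, and make up 8 of the 22180 named genes on the array. Each was covered by 1 transcript cluster, a set of probes read out as 1 log2 signal, and none of these clusters was shared with another gene. All 8 entered every test, with no filter on low signal.

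The arrays came from E14 cells, an established mouse embryonic stem (ES) cell line, and fall into 4 groups of 3. They comprise 1 group of shLOXL2 cells with RA (day 1), 1 of shLOXL2 cells without RA (day 0), 1 of shCT cells with RA (day 1) and 1 of shCT cells without RA (day 0). Every group carried a transduced short hairpin RNA, directed at the lysyl oxidase family gene LOXL2 in shLOXL2 cells and a control hairpin in shCT cells. RA is read here as retinoic acid, the labels used here give no dose, and no untreated group was sampled at day 1, so RA and a day of culture cannot be told apart. All cells are of 1 line, and the labels do not give the number of hairpins or state whether replicates were separate cultures. The p-values therefore cover the spread among these arrays alone, which could be technical.

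BMP ligands bind pairs of receptor kinases at the cell surface, which activate Smad1, Smad5 and Smad9, and these enter the nucleus with Smad4. The Id genes are classical direct targets of this route, and Smad6 is both a target and a brake on it. Id proteins have a helix-loop-helix but no basic region, so they bind E proteins and keep them off DNA. In mouse ES cells, BMP4 together with the cytokine LIF sustains self-renewal, in part through Id genes.

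RefSeq promoter sequences (build GRCm38.p6) were held for 5 of the 8 genes. The 250 bases before the start site are shown for Bmp4, Smad6 and Id2, the genes that passed the test for RA below, and for Id3, the Id gene whose window holds matches to a Smad-binding element. All are written 5′ to 3′ in the direction of the gene, and capitals mark matches on either strand to any of 4 motifs. These were GGCGCC (a GC-rich element bound by Smads, its own reverse complement), CAGAC (a Smad-binding element), and AGGTCA and AGTTCA (half-sites of retinoid receptors). No match overlapped another.
Bmp4 (chr14:46390670-46390919, minus strand): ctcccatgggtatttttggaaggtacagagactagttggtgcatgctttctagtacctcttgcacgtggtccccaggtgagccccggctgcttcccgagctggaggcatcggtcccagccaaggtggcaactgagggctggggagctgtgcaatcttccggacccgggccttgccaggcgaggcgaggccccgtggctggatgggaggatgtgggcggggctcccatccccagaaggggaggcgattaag
Smad6 (chr9:64022060-64022309, minus strand): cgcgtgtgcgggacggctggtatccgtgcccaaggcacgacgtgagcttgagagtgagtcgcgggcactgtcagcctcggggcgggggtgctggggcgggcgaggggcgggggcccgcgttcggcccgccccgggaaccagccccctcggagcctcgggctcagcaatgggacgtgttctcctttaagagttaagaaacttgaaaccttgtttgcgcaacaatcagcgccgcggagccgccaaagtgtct
Id2 (chr12:25096093-25096342, minus strand): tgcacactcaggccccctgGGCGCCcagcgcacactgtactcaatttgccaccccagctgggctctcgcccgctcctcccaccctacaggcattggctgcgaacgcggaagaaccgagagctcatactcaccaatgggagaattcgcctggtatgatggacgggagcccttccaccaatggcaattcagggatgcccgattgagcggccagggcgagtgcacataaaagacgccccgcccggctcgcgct
Id3 (chr4:136143572-136143821, plus strand): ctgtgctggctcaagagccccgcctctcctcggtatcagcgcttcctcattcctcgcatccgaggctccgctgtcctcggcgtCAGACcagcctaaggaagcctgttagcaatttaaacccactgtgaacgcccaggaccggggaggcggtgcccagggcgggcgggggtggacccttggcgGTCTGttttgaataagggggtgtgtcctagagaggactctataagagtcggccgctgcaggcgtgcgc
Id2 held 1 match to GGCGCC, which starts 231 bases before the start site, and the window of Id4 held 1 at 148 bases. Of 32851 such windows, 9.59% held this motif. Id3 held CAGAC or its reverse complement at 167 and 68 bases before the start site, a motif found in 42.2% of windows. AGGTCA (14.02% of windows) and AGTTCA (11.8%) were not among the letters of any of the 5 windows. The windows of Bmp4 and Smad6 held none of the 4 motifs. The windows were rich in G and C, from 62.8% in Id2 and Id3 to 75.6% in Id4, against a median of 52.4% over all windows.

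The labelled treatments were checked on genes outside the set. Cyp26a1, which degrades retinoic acid, rose with RA by 4.29 ± 0.16 (SE) in shLOXL2 cells and by 4.09 ± 0.16 in shCT cells on the log2 scale. Both clusters of Loxl2 are shared with a predicted gene, and their mean signal in shLOXL2 cells with RA was 53.4% and 47.2% of shCT, with no overlap of arrays. Without RA it was 67.5% of shCT for the first, with no overlap, and 89.6% for the second, whose shLOXL2 arrays (4.58, 4.69 and 5.03) overlapped the shCT arrays (4.92, 4.58 and 5.27). Without RA, 1 of the 2 clusters thus did not separate the constructs. The 8 ES cell markers had a median log2 signal between 9.03 and 9.07 in every group, and a median RA change of -0.37 on average. Of these, 4 were called lower with RA (Pou5f1, Sox2, Zfp42 and Esrrb, log2 changes of -0.65 to -0.44), beside 4.8% of all genes. Their summed linear signal was 5410 to 5805 with RA and 6371 to 7784 without RA in shLOXL2. In shCT it was 5385 to 6085 with RA and 6244 to 8434 without RA. Of 8 fibroblast markers, 6 or 7 had means below the array median. An axis held 49.4% of the variance within groups. The 4 arrays that scored above 0.2 on it, called set apart below, were replicate 1 of shLOXL2 and replicate 3 of shCT, each with and without RA. This cut took 1 side only, and the score largest in size was -0.50, for replicate 1 of shCT without RA. The average RA and knockdown changes of the 8 genes are given with and without the 4 arrays. The axis and the 4 arrays were picked from deviations in these same data. Using them can narrow the spread by construction, so a call gained that way is no added support. Centring each array on its median moved the median RA change of all genes in shCT cells to -0.10. With this centring 336 of 1206 calls were upward in shCT, 368 of 782 in shLOXL2 and 874 of 2653 on average, against 480 of 943, 455 of 768 and 1224 of 2289 on the deposited scale. For knockdown on average 8 of 12 calls were upward, and 8 of 18 after a second quantile normalization.

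With RA, the ligand gene Bmp4 fell and the inhibitor gene Smad6 rose in both constructs, and Id2 rose on average of both. The fall of Bmp4 was to 0.383-fold and the rise of Smad6 to 2.22-fold on average of both constructs, with Id2 at 1.88-fold. Of the 8 genes, limma (adjusted p under 0.05 over all 22180 genes) called 1 higher and 1 lower in shLOXL2 cells, where 3.46% of all genes were called (2.05% upward and 1.41% downward). It likewise called 1 higher and 1 lower in shCT cells, where 4.25% were called (2.16% upward and 2.09% downward). On average of both constructs 2 were higher and 1 lower, against 10.3% of all genes (5.52% upward and 4.8% downward). The median RA change over the 8 genes was 0.37 on this average, beside -0.01 over all genes. The arrays measured bulk RNA, in which fewer cells of a type and less RNA per cell cannot be told apart.

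**Figure D1:**
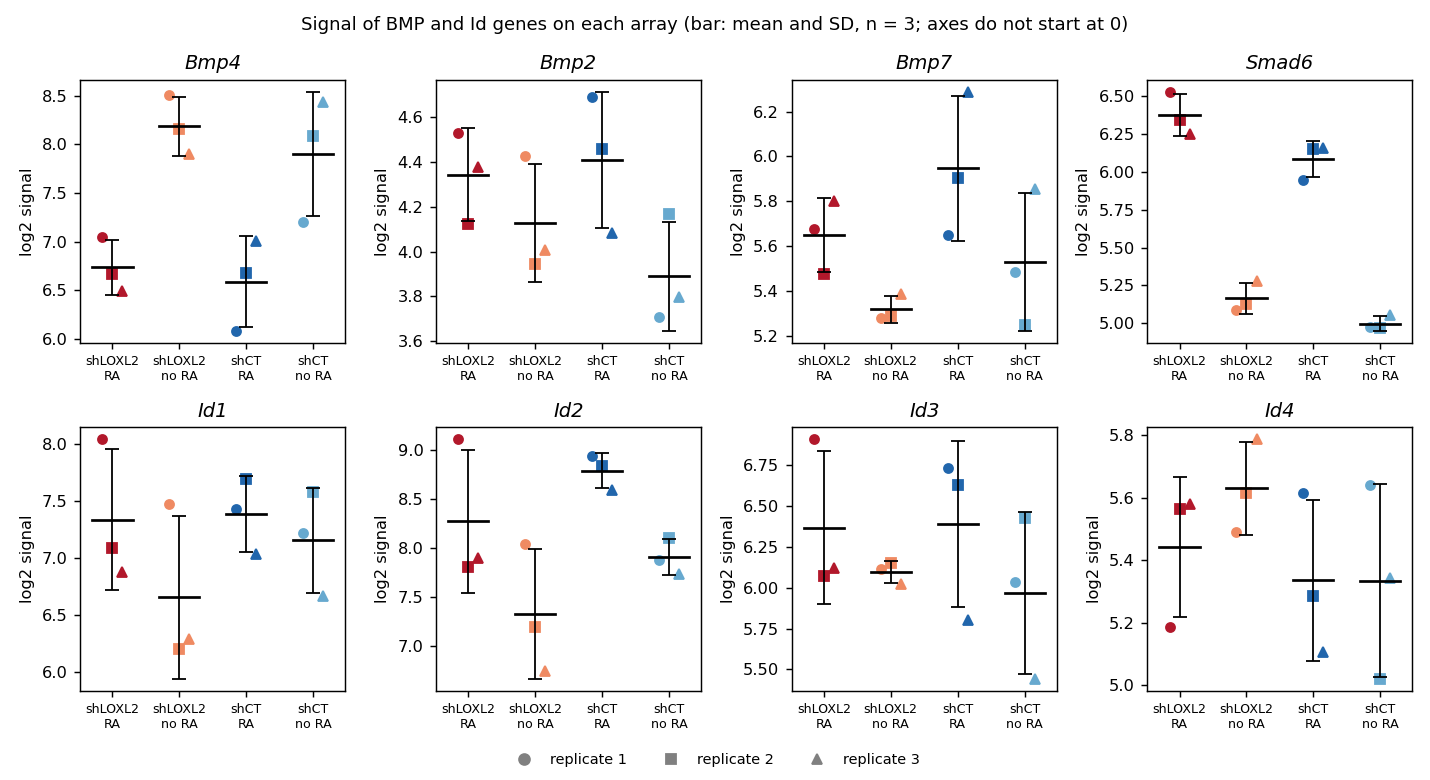
Log2 signal of each gene (vertical axes, which do not start at 0) on each of the 12 arrays by group; symbols give the replicate number and black bars the mean and SD (n = 3). Bmp4 and Smad6 separate the RA groups from the groups without RA, while Id1 and Id2 spread widely within shLOXL2, where replicate 1 is the highest array in each RA state.

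Bmp4 encodes the BMP ligand best known for its part in ES cell self-renewal. Its log2 signal was 7.05, 6.67 and 6.49 on the RA arrays of shLOXL2, against 8.51, 8.16 and 7.90 on the shLOXL2 arrays without RA. The shCT signals were 6.08, 6.67 and 7.01 with RA, against 7.20, 8.08 and 8.44 without RA. In each construct all 3 RA arrays lay below all 3 arrays without RA. The log2 change was -1.45 ± 0.30 (SE, n = 3) in shLOXL2 (limma adjusted p = 0.0150) and -1.32 ± 0.30 in shCT (adjusted p = 0.0238). The average was -1.39 ± 0.21 (adjusted p = 0.000763). Group means were 6.73 in shLOXL2 with RA and 6.59 in shCT with RA, which overlapped, and 8.19 in shLOXL2 without RA and 7.91 in shCT without RA, which overlapped too.

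The calls for Bmp4 within 1 construct depended on single arrays. In shCT the change was -1.23 without replicate 2 of shCT without RA (adjusted p = 0.109), -1.05 without replicate 3 of that group (0.0743), -1.06 without replicate 1 of shCT with RA (0.116) and -1.36 without replicate 2 of that group (0.0700). A fit on the 6 shCT arrays alone gave an adjusted p of 0.0765. In shLOXL2, untreated replicate 1 left out gave -1.29 (0.0533) and untreated replicate 2 left out -1.47 (0.0537). Leaving out RA replicate 2 of shLOXL2 gave -1.42 (0.0557) and RA replicate 3 -1.33 (0.0769). The average over both constructs passed in all 22 alternatives, with changes between -1.56 and -1.25. Within groups Bmp4 followed the axis that sets the 4 arrays apart (r = 0.91 over 12 arrays, a description of deviations from 4 group means). Without those 4 arrays its average RA change was -1.36 ± 0.20 (adjusted p = 0.0031).

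Bmp2 and Bmp7, ligands that signal through related receptors, did not pass the test with RA in the main fit. Both passed it on average in fits with a block for each construct and number. Bmp2 was dim, below the median cluster on 11 of 12 arrays, and no background level was set here. Its log2 signal was 4.53, 4.12 and 4.38 with RA and 4.43, 3.94 and 4.01 without RA in shLOXL2. In shCT it was 4.69, 4.45 and 4.08 with RA and 3.71, 4.17 and 3.80 without RA. The groups overlapped in both constructs, and the average change was 0.37 ± 0.13 (limma adjusted p = 0.111). Bmp7 was 5.68, 5.48 and 5.80 with RA and 5.28, 5.29 and 5.39 without RA in shLOXL2, where the groups did not overlap. The shCT arrays read 5.65, 5.90 and 6.29 with RA and 5.49, 5.25 and 5.86 without RA, where they did. The average change of Bmp7 was 0.37 ± 0.13 (limma adjusted p = 0.0858), and it passed when replicate 1 of shCT with RA (0.45, 0.0490) or replicate 3 of shCT without RA (0.46, 0.0281) was left out. Bmp2 passed at 0.44 (0.0484) without replicate 1 of shLOXL2 without RA. With arrays of 1 construct and number as a random block, the average passed for both Bmp2 (adjusted p = 0.0337) and Bmp7 (0.0193), and with that block as fixed, added after seeing the data, for both as well (0.0372 and 0.0151). Bmp7 also passed with the replicate number as a block (0.0457), where Bmp2 did not (0.121), and with the axis as a covariate (0.0339). The axis was drawn from the residuals of these same data, so that fit keeps the estimate and takes out residual spread by construction. It called 4584 genes on average, against 2289 in the main fit, and the pass of Bmp7 in it is no added support. Without the 4 arrays set apart the average was 0.45 for Bmp2 (0.0533) and 0.35 for Bmp7 (0.0903). In the order of the 4 group means, each group of Bmp2 and of Bmp7 overlapped its neighbour.

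Smad6 encodes an inhibitory Smad that blocks activation of the BMP-specific Smads. Its log2 signal was 6.53, 6.34 and 6.25 on RA arrays of shLOXL2, against 5.09, 5.13 and 5.28 without RA. In shCT Smad6 was 5.95, 6.15 and 6.16 with RA, against 4.97, 4.97 and 5.05 without RA. The lowest RA array of either construct lay above the highest array without RA, and no neighbours in the order of the 4 groups overlapped. The change was 1.21 ± 0.12 (SE) in shLOXL2 (limma adjusted p = 6.7e-05), 1.09 ± 0.12 in shCT (0.00014) and 1.15 ± 0.09 on average (1.4e-06). In all 22 alternatives of the average, and all 23 of each construct, the call was kept, with an average between 1.07 and 1.19. Within groups the SD was at most 0.14, the smallest spread of the 8 genes in 3 of the 4 groups, and the correlation with the axis of the 4 arrays was 0.29. Without those arrays the average change of Smad6 was 1.09 ± 0.10 (0.000225).

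In each construct, 3 of the 8 genes had RA and untreated arrays that did not overlap. These were Bmp4, Smad6 and Bmp7 in shLOXL2, where 19.6% of all genes did not overlap, and Bmp4, Smad6 and Id2 in shCT, where 21.2% did not.

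**Figure D2:**
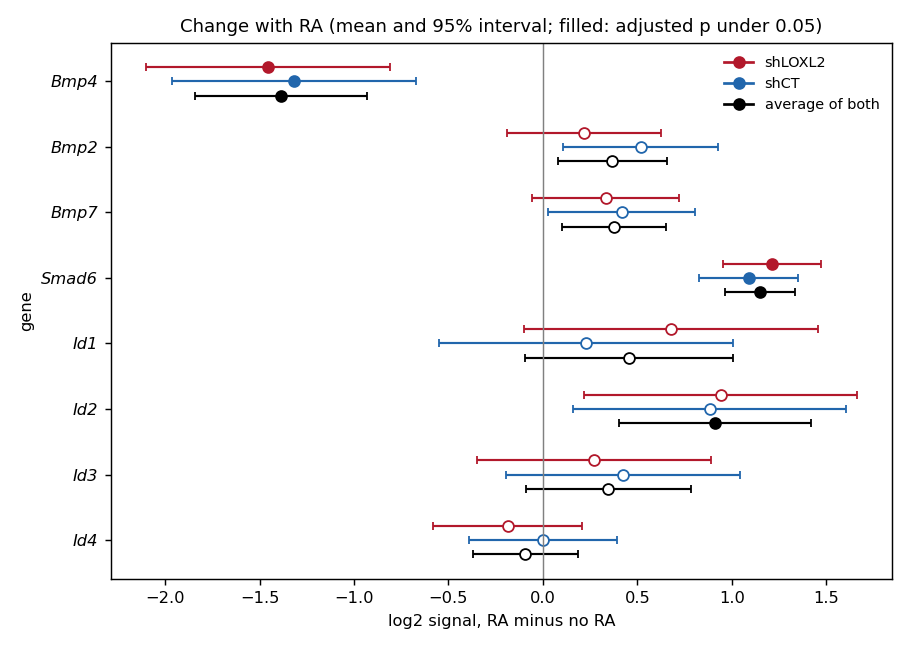
RA change of each gene (horizontal axis, log2 signal with RA minus without RA) in shLOXL2, in shCT and on average, with 95% intervals of the limma fit; filled symbols passed an adjusted p of 0.05. Bmp4 lies at -1.39 and Smad6 at 1.15 on average, and the intervals of Id1, Id3 and Id4 include 0 in each construct.

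Among the Id genes, Id2 had the largest RA change. Its log2 signal was 9.10, 7.81 and 7.90 on the RA arrays of shLOXL2, against 8.04, 7.20 and 6.74 without RA. In shCT Id2 was 8.93, 8.83 and 8.59 with RA, against 7.87, 8.10 and 7.73 without RA. The shCT groups were apart and the shLOXL2 groups overlapped, since replicate 1 without RA stood above replicates 2 and 3 with RA. The change was 0.94 ± 0.33 (SE) in shLOXL2 (limma adjusted p = 0.182) and 0.88 ± 0.33 in shCT (0.192). On average it was 0.91 ± 0.24 (0.0248). That call was lost without replicate 1 or 2 of shCT with RA (0.87 and 0.90, adjusted p = 0.0623 and 0.0575) and without replicate 2 or 3 of shLOXL2 without RA (0.88 and 0.77, adjusted p = 0.0624 and 0.0633). Without the 4 arrays set apart, Id2 passed in each construct, at 0.88 ± 0.17 in shLOXL2 (0.0298) and 0.90 ± 0.17 in shCT (0.0232). On average it stood at 0.89 ± 0.12 there (0.0020). Those arrays were picked from deviations in these same data, so the calls gained without them are no added support. Id2 also passed in each construct with the random block (0.0316 in shLOXL2 and 0.0374 in shCT). It passed in shLOXL2 without untreated replicate 1 (1.298 ± 0.31, 0.0420) and in a fit on the 6 shCT arrays alone (0.88 ± 0.15, 0.0196).

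Id1, the Id gene most often used as a readout of BMP signalling, had a log2 signal of 8.04, 7.09 and 6.88 on the RA arrays of shLOXL2, against 7.48, 6.21 and 6.29 without RA. Signals in shCT were 7.43, 7.69 and 7.03 with RA, against 7.22, 7.58 and 6.67 without RA. The RA and untreated ranges overlapped in both constructs. The change was 0.68 ± 0.36 in shLOXL2 (limma adjusted p = 0.434), 0.23 ± 0.36 in shCT (0.829) and 0.45 ± 0.26 on average (0.335). In shCT it turned to -0.014 when replicate 3 of shCT without RA was left out. Without the 4 arrays set apart, a choice that can itself narrow the spread, the average of 0.45 ± 0.12 passed (0.0419).

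In shLOXL2, arrays with the same replicate number deviated together, with correlations of 0.558, 0.248 and 0.216 over all genes, so the RA change can also be read pair by pair. Id1 differed by 0.56, 0.88 and 0.59 in the 3 pairs and Id2 by 1.06, 0.61 and 1.15. Every pair was higher with RA for both genes, and the differences varied less than the levels. With a block for each construct and number, chosen after seeing the data, limma called Id1 (0.68 ± 0.12, adjusted p = 0.0064) and Id2 (0.94 ± 0.13, 0.0022) in shLOXL2. With that block as random, limma gave Id1 0.68 ± 0.26 (adjusted p = 0.146), and with the replicate number alone as a block 0.68 ± 0.28 (0.302), so the call of Id1 was made by the fixed block alone among these 3. The fit with the fixed block called 1624 genes there, against 768 without the block, and 4 of the 8 genes against 2. Bmp4 fell by 1.46, 1.49 and 1.41 in the 3 pairs, a spread of 0.037 (SD), while its untreated levels spread by 0.305. In shCT the same-number correlations were 0.363, 0.0394 and 0.631, with replicate 2 under the limit of 0.1 set for pairing. Read by number there, Bmp4 changed by -1.12, -1.41 and -1.43 (SD 0.174), while its untreated levels spread by 0.638. By number in shCT, Id2 changed by 1.06, 0.73 and 0.85, and Id1 by 0.21, 0.12 and 0.37.

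**Figure D3:**
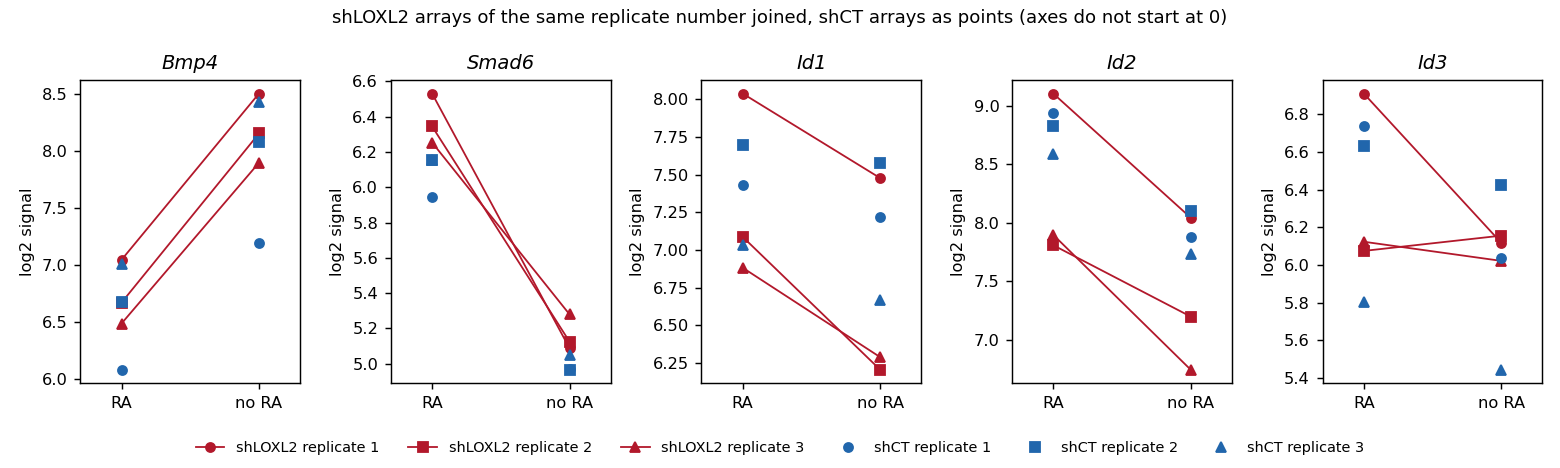
Log2 signal (vertical axes, which do not start at 0) with and without RA; lines join shLOXL2 arrays of the same replicate number and blue symbols are shCT arrays. The 3 lines of Bmp4 run almost in parallel, and for Id1 and Id2 replicate 1 of shLOXL2 lies above replicates 2 and 3 at both ends.

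Id3, which is often induced together with Id1, was 6.91, 6.07 and 6.12 on the RA arrays of shLOXL2, against 6.12, 6.16 and 6.02 without RA. In shCT Id3 was 6.74, 6.63 and 5.80 with RA, against 6.04, 6.43 and 5.44 without RA. With RA, only replicate 1 of shLOXL2 and replicates 1 and 2 of shCT lay above all untreated arrays of their construct, and the average change was 0.35 ± 0.20 (limma adjusted p = 0.359). In the shLOXL2 pairs Id3 differed by 0.79, -0.08 and 0.10, and without the 4 arrays set apart the average was 0.23 ± 0.11 (0.230). Id4, the Id gene best known from neural tissue, was 5.19, 5.56 and 5.58 with RA and 5.49, 5.61 and 5.79 without RA in shLOXL2. In shCT Id4 was 5.61, 5.29 and 5.11 with RA and 5.64, 5.02 and 5.34 without RA. Its average change was -0.09 ± 0.13 (limma adjusted p = 0.745, 95% interval -0.37 to 0.18), and -0.0049 ± 0.15 without the 4 arrays set apart (0.990). In shCT its sign was negative under both other scalings. For Id1, Id2, Id3 and Id4, each group overlapped its neighbour in the order of the 4 means.

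LOXL2 knockdown was compared next. With RA, 0 of the 8 genes passed the limma threshold, as did 0% of all genes, and Smad6 alone of the 8 had an unadjusted p under 0.05, as did 4.96% of all genes. Without RA, 0 of the 8 and 0% of all genes passed, and an unadjusted p under 0.05 was found for 0 of the 8 and 4.68% of all genes. On average of both RA states 0 of the 8 passed limma's threshold, and 0.0541% of all genes did (0.0361% upward and 0.018% downward). An unadjusted p under 0.05 was found there for 2 of the 8, Smad6 and Id2, and for 6.72% of all genes. The knockdown differences of the 4 Id genes on this average ran from -0.54 to 0.20.

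Id2 was lower in shLOXL2 by the largest amount, at -0.54 ± 0.24 on average (limma adjusted p = 0.710, 95% interval -1.05 to -0.03). Its group means were 8.27 ± 0.72 (SD, n = 3) in shLOXL2 and 8.78 ± 0.18 in shCT with RA, and 7.33 ± 0.66 in shLOXL2 and 7.90 ± 0.18 in shCT without RA. In both RA states replicate 1 of shLOXL2 lay inside or above the shCT range and replicates 2 and 3 lay below it. Id1 stood at -0.27 ± 0.26 (0.925), and replicate 1 was its highest shLOXL2 array in both RA states. Without the 4 arrays set apart, which include that replicate 1, the difference was -0.86 ± 0.12 for Id1 (adjusted p = 0.0421) and -1.02 ± 0.12 for Id2 (0.0270). That fit has 2 arrays per group and called 37 genes in all. The arrays left out were picked from deviations within groups in these same data. This choice can itself narrow the spread and move the estimate, so the 2 calls are no added support for a knockdown difference. With the axis as a covariate instead, Id2 stood at -0.54 ± 0.20 (0.254) and Id1 at -0.27 ± 0.24 (0.679).

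Smad6 was higher in shLOXL2 by 0.23 ± 0.09 on average (limma adjusted p = 0.581, 95% interval 0.04 to 0.41). The shLOXL2 and shCT arrays of Smad6 did not overlap in either RA state, and it was the only one of the 8 genes of which this held. Over all genes 12.5% did not overlap with RA and 8.23% without RA, near the share of 1 in 8. Bmp7 stood at -0.25 ± 0.13 (0.775), Bmp4 at 0.21 ± 0.21 (0.934), Id4 at 0.20 ± 0.13 (0.838), Bmp2 at 0.08 ± 0.13 (0.970) and Id3 at 0.05 ± 0.20 (0.990). The 95% interval reached from -0.24 to 0.67 for Bmp4 and from -0.38 to 0.49 for Id3. Without the 4 arrays set apart the difference was -0.083 for Bmp7, -0.14 for Bmp2 and -0.36 for Id3, and it was 0.29 for Bmp4, 0.24 for Smad6 and 0.25 for Id4. None of these passed limma's threshold, with adjusted p from 0.270 to 0.851.

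**Figure D4:**
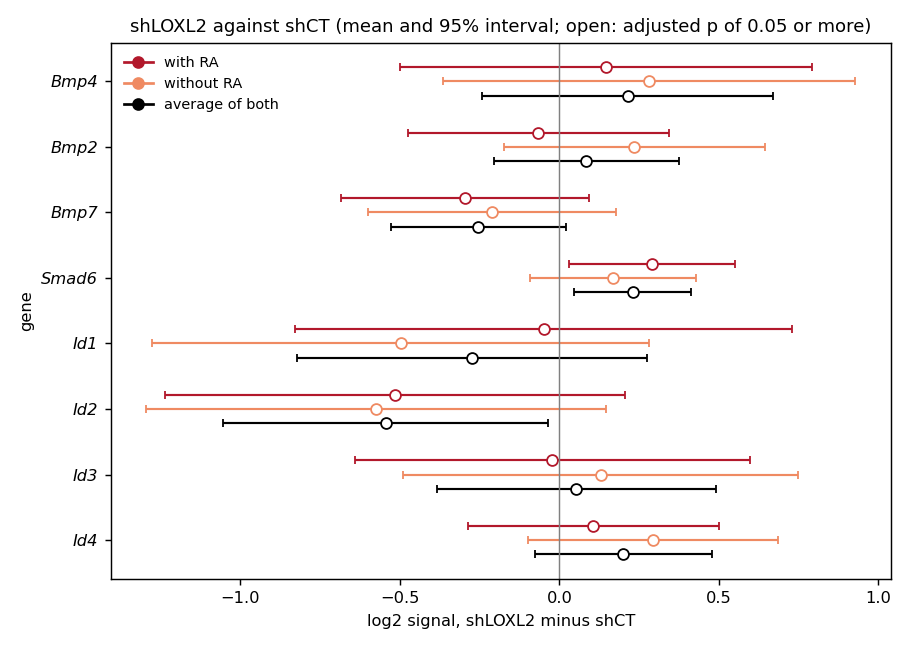
Difference of shLOXL2 from shCT for each gene (horizontal axis, log2 signal) with RA, without RA and on average, with 95% intervals of the limma fit. All symbols are open since no adjusted p was under 0.05, and the average intervals of Smad6 and Id2 exclude 0 before adjustment.

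The RA responses of both constructs were compared through their difference, shLOXL2 minus shCT. None of the 8 genes and no gene in all (0%) passed limma's threshold, and 0 of the 8 and 2.94% of all genes had an unadjusted p under 0.05. The difference was -0.13 ± 0.42 for Bmp4 (95% interval -1.05 to 0.78) and 0.12 ± 0.17 for Smad6 (-0.25 to 0.49). It was 0.45 ± 0.51 for Id1 (-0.65 to 1.55) and 0.06 ± 0.47 for Id2 (-0.96 to 1.08). For Id3 it was -0.15 ± 0.41 (-1.03 to 0.73). The intervals of Bmp4, Id1, Id2 and Id3 reached past 1 log2 unit in size. A difference of that size was thus not excluded for these genes.

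Other genes of the BMP pathway were read from 7 lists. Of 63 listed genes 58 were measured, and with RA on average 8 rose and 2 fell past the limma threshold. Among all genes 10.3% were called (5.52% upward and 4.8% downward). Their median change was 0.06, beside -0.01 over all genes. With single arrays left out 5 to 10 rose and 1 to 3 fell, with the lowest count of 5 without replicate 3 of shLOXL2 without RA. The count of falls was 1 without replicate 3 of shLOXL2 with RA, replicate 2 of shLOXL2 without RA, replicate 3 of shCT with RA or replicate 2 of shCT without RA, and 3 without replicate 1 of shCT without RA. With the fixed block for construct and number 17 rose and 3 fell, and with the random block or the axis as a covariate 16 rose and 3 fell.

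Among 12 other ligands Gdf3, a TGF-beta family member of the ES cell state, fell by 0.47 ± 0.12 (limma adjusted p = 0.0199), and no other passed. Of 9 receptors and co-receptors none passed, and the smallest p belonged to the type I receptor gene Bmpr1a (0.47 ± 0.18, 0.115). Of 5 Smads none passed. Smad7, the other inhibitory Smad, stood at -0.41 ± 0.15 (0.114), opposite in sign to Smad6. Of 13 extracellular antagonists and decoys Fst, which binds activins and some BMPs, fell by 0.52 ± 0.10 (0.0045) and Twsg1, which binds BMPs together with chordin, rose by 0.55 ± 0.14 (0.0230).

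Of 6 intracellular regulators both Ski and Skil rose, beside 5.52% of all genes. They encode related corepressors of Smad complexes. Ski changed by 0.68 ± 0.08 (limma adjusted p = 0.000135) and Skil by 0.86 ± 0.23 (0.0273). Of 10 further BMP-responsive genes 4 rose, beside 5.52% of all genes, and none fell, and the median of the list was 0.52. They were Dusp9, a phosphatase for ERK that BMP4 induces in mouse ES cells (1.80 ± 0.13), and the homeobox genes Dlx3 (0.82 ± 0.10) and Msx2 (0.74 ± 0.15), followed by Gata2 (0.71 ± 0.18, adjusted p = 0.0203). The log2 signal of Dusp9 averaged 11.06 ± 0.06 with RA and 9.25 ± 0.08 without RA in shLOXL2, and 11.03 ± 0.22 with RA and 9.24 ± 0.43 without RA in shCT. Gata2 was the fourth by p and fell outside the rule for named genes. Of 3 E proteins, the partners that Id proteins bind, Tcf12 rose by 0.57 ± 0.12 (0.0078).

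**Figure D5:**
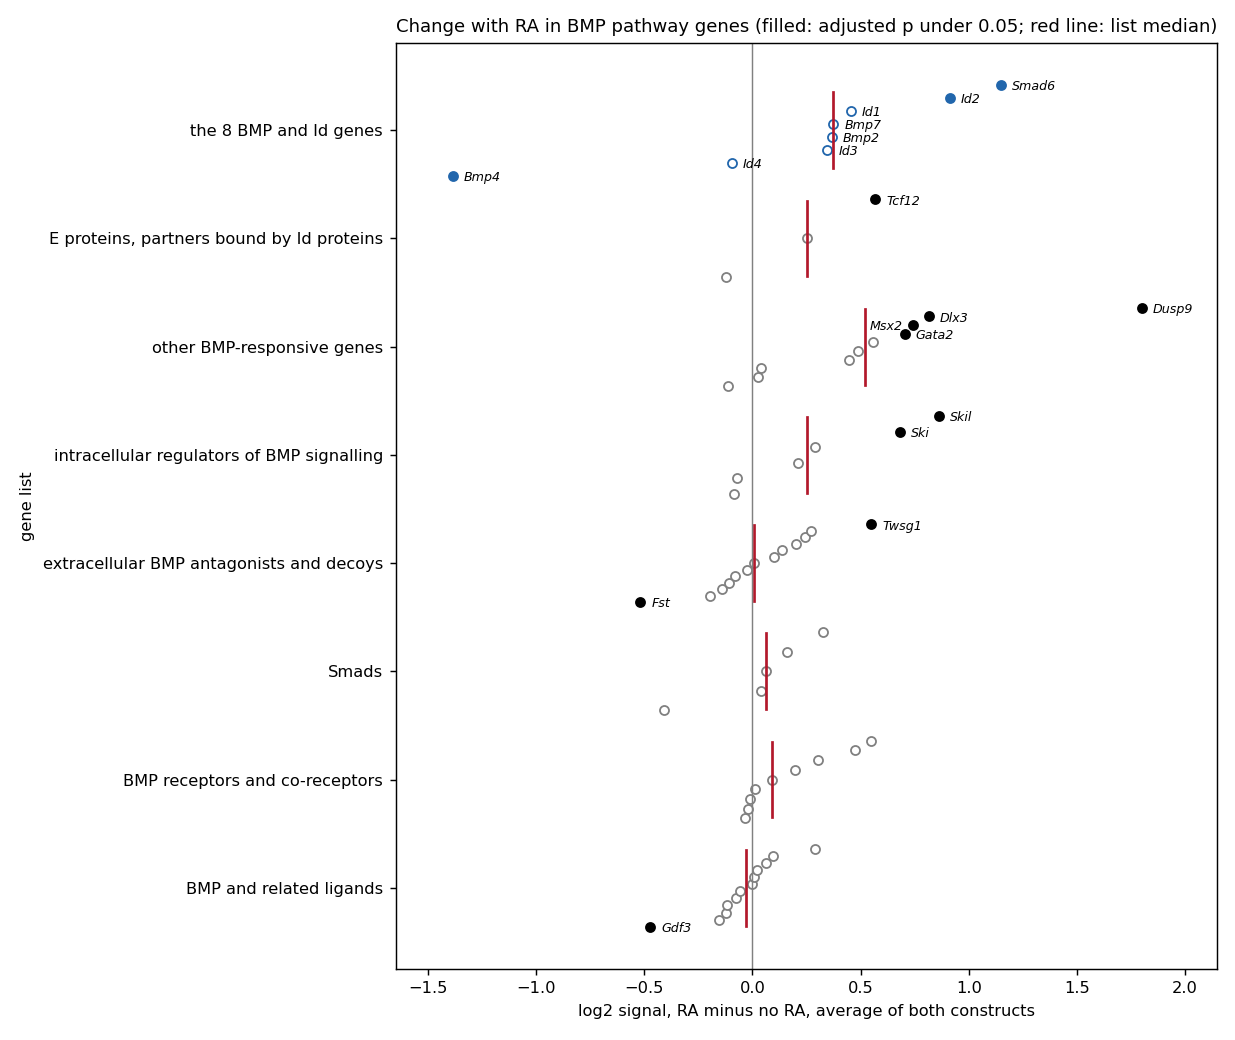
RA change on average of both constructs (horizontal axis, log2 signal with RA minus without RA) for every measured gene of 7 pathway lists and for the 8 BMP and Id genes (top, blue); filled symbols passed an adjusted p of 0.05 and red lines are list medians. The list of other BMP-responsive genes has its median at 0.52, the medians of the receptors and the Smads are 0.09 and 0.06, and Bmp4 is the lowest gene shown.

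The calls for Dusp9, Dlx3, Msx2, Ski, Fst and Tcf12 held in all 22 alternatives. The call of Gdf3 was lost without replicate 3 of shLOXL2 with RA, replicate 2 of shLOXL2 without RA, replicate 3 of shCT with RA or replicate 2 of shCT without RA (changes of -0.46 to -0.40, adjusted p of at most 0.0591). Gata2 was lost without replicate 3 of shLOXL2 without RA (0.66) or replicate 2 of shCT with RA (0.60, adjusted p of at most 0.0547). Twsg1 was lost without replicate 1 of shLOXL2 with RA, replicate 2 or 3 of shLOXL2 without RA, replicate 3 of shCT with RA or replicate 2 of shCT without RA, and after centring (0.47 to 0.55, adjusted p of at most 0.0619). Skil was lost without those same arrays and also without replicate 1 of shCT with RA or without RA (0.71 to 0.88, adjusted p of at most 0.0755).

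Some markers of other cell types rose with RA. Of 8 primitive endoderm markers Gata6 (1.63 ± 0.17) and Pdgfra (0.94 ± 0.24) rose, and of 8 trophectoderm markers Cdx2 (0.63 ± 0.13) and Krt18 (0.44 ± 0.13) did, while 0 of 8 fibroblast markers passed limma's threshold (Thy1 alone had an unadjusted p under 0.05). No marker of these 3 lists fell, and 5.52% of all genes rose. The median RA change was 0.24 for the primitive endoderm list and 0.22 for the trophectoderm list, beside -0.01 over all genes. Gata3 and Tfap2c stand in both the trophectoderm list and the list of other BMP-responsive genes. The summed linear signal of the trophectoderm list was 444 to 481 with RA and 322 to 430 without RA in shLOXL2, and 417 to 475 with RA and 353 to 419 without RA in shCT. That of the primitive endoderm list was 1289 to 1380 with RA and 899 to 955 without RA in shLOXL2, and 1024 to 1879 with RA and 831 to 1754 without RA in shCT. Their part in the BMP and Id changes was not tested. With knockdown on average none of the 58 pathway genes passed limma's threshold, and the smallest p belonged to Dlx3 (-0.42 ± 0.10, adjusted p = 0.216).

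Across the 12 arrays, the pairs of members differed in how alike their signals ran, described here by Pearson's r with no test, since the arrays share 4 group means and the axis. Id1 and Id2 were the most alike pair, with r = 0.86 over all arrays and 0.89 for deviations from group means. Bmp2 and Id3 came next over all arrays, at 0.77, with 0.71 within groups. Bmp4 and Smad6 ran opposite over all arrays (r = -0.79) and not within groups (0.44). Bmp4 and Id4 ran opposite within groups (-0.83).

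A search of 18224 protein-coding genes gave those most like each member over the 12 arrays. For Smad6 they were Stox2 (r = 0.99) and the adducin gene Add1 (0.98), both higher with RA on average (1.33 and 0.91). For Bmp4 they were Alg13, which acts in protein glycosylation (0.97), and Zfp59 (0.96), both lower with RA (-0.97 and -0.60). For Id2 they were Syna (0.97) and the carbonic anhydrase gene Car2 (0.96), and for Id1 Fam151b (0.92) and Crct1 (0.91). For Bmp2 they were the histone demethylase gene Kdm3a (0.93) and Pax6 (0.93), and for Bmp7 Fbxl20 (0.94) and Trim56 (0.94). Id3 and Id4 had the least close matches, Nup50 (0.89) and Glyr1 (0.89) for Id3 and Tgm7 (0.90) and Ccdc57 (0.89) for Id4.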

How the data were processed

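Total RNA of 12 samples was labelled, per the labels' protocols, with an Affymetrix kit for whole transcripts. The authors deposited 1 log2 signal for each transcript cluster. The submitters' processing notes list RMA, limma and R version 3.1.1, without roles. The near-equal array medians (4.58 to 4.68) go with normalization between arrays, which takes out shifts shared by most genes. No scanner files were used here, and the genome build of the array is not given in the sources used here. The number of arrays limits the precision.

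Of 41345 clusters 23521 had 1 gene, 1814 several and 16010 were unnamed here. Symbols were updated through the RefSeq gene table (23328 matched), and the brightest cluster stood for a gene with several (1082 genes).

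One limma 3.58.1 fit (R 4.3.3, statmod 1.5.0) had 1 mean per group over all 12 arrays and 7 contrasts. P-values were adjusted by Benjamini-Hochberg over 22180 genes, with a threshold of 0.05, and errors are standard errors of the fit. In simulated data for RA in shCT (22180 genes, 200 changed, 10 runs) the fit recovered 15.1% of changes of 0.5 log2 units, 76.4% of 1 and 97.4% of 2, and 4.60% of calls were false. The simulated noise was independent between genes and arrays, while in the data 49.4% of the variance within groups lay on 1 axis. These rates may therefore not hold for these arrays.

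The 8 genes, the pathway lists and the tests were chosen with earlier results of these data known. Named genes were the 8, up to 3 called genes per list by smallest p (or the 1 with the smallest p), and the 2 genes most correlated with each of the 8 among protein-coding genes without predicted or numbered symbols. Alternatives were a second quantile normalization, centring on medians, a filter on dim genes, a variance trend, the mean of clusters, only the groups compared, blocks, the axis within groups, and leaving out each array.

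Whether replicate numbers pair samples was checked by correlating deviations from group means. In shLOXL2 every pair with and without RA exceeded 0.1 (0.558, 0.248, 0.216), so the paired fit is given there. In shCT replicate 2 fell under this limit (0.363, 0.0394, 0.631), which does not exclude pairing there. Between constructs not every pair exceeded 0.1. The axis within groups is the first principal component of the residuals.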

Additional observations from a re-analysis of the deposited data

How the results depend on the processing

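Of 7 calls for single BMP and Id genes, 145 of 158 alternative values kept the call and 0 changed direction. Calls of Smad6 and the average of Bmp4 were kept throughout, and the losses for Bmp4 in 1 construct and Id2 on average are given with those genes. Counts of genes called moved most for the axis as a covariate (2474 for RA in shCT, 2212 in shLOXL2 and 4584 on average, 9, 22 and 136 for knockdown with RA, without RA and on average). The fixed replicate block for construct and number gave 1800, 1624 and 3677 for RA, with 4 of the 8 genes in shLOXL2 and 6 on average. The random replicate block (consensus correlation 0.323) gave 2047, 1675 and 3871, with 5 of the 8 on average and 0 genes for knockdown on average. The replicate number alone as a block gave 1 gene for knockdown on average, a variance trend 22, the filter on dim genes 27 and leaving out the 4 arrays 37, with 2 of the 8 genes. Only the arrays compared gave 599 for RA in shCT. With 1 array left out, counts ran from 483 to 1049 for RA in shCT, 444 to 916 in shLOXL2, 1684 to 2605 on average and 0 to 19 for knockdown on average, with 0 left without replicate 2 or 3 of shLOXL2 in either RA state or any shCT array with RA. For RA in shLOXL2 the low counts were 511 and 444 without RA replicates 2 and 3 and 461 and 488 without untreated replicates 2 and 3. For RA in shCT they were 512, 555 and 561 without RA replicates 1, 2 and 3 and 483 without untreated replicate 2. Members called ran from 1 to 2 in each construct and from 2 to 4 on average. The axis and the 4 arrays were picked from deviations within groups in these same data, which can narrow the spread by construction. The cause of the other moves was not tested. In shCT the correlation of replicate 2 (0.0394) fell under the limit set for pairing, which does not exclude pairing of the shCT arrays by number.

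Sign changes were found only in values that had not passed the threshold. Id4 with RA in shCT was -0.10 after a second quantile normalization and -0.10 after centring, and Id3 for knockdown with RA was 0.021 after centring. Without the 4 arrays, Id3 was -0.14 for knockdown without RA and -0.36 on average, Bmp2 -0.14 on average, and the difference of the RA responses of Id2 -0.015. With 1 array left out, knockdown with RA ran from -0.23 to 0.073 for Bmp2, -0.11 to 0.36 for Bmp4, -0.40 to 0.18 for Id1, -0.31 to 0.15 for Id3 and -0.0072 to 0.25 for Id4. Knockdown without RA ran from -0.073 to 0.55 for Bmp4 and -0.13 to 0.36 for Id3, and on average from -0.093 to 0.17 for Id3. RA in shCT ran from -0.014 to 0.44 for Id1 and -0.16 to 0.15 for Id4. The difference of the RA responses ran from -0.40 to 0.22 for Bmp4, -0.25 to 0.086 for Bmp7, -0.36 to 0.42 for Id2 and -0.44 to 0.11 for Id3.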
